A study of Bos taurus with 30 samples.

Results

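miR-2284 and miR-2285 are a multi-copy family of bovine miRNAs, measured here in the testes of 30 Holstein-Friesian bull calves. A row of the deposited table belonged to the set when its number was exactly that of miR-2284 or miR-2285, with any letter, copy number or arm, and when at least 1 library held a value above 0. This gave 29 rows of miR-2284 and 112 rows of miR-2285, out of 838 rows above 0 in the whole table. Another 7 rows with these numbers were listed at 0 in every library: miR-2284g, miR-2284h-3p, miR-2285bx, miR-2285cb, miR-2285cg, miR-2285dm and miR-2285z.

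All calves were males of 1 breed, each gave 1 library, and the diets ran from 2 to 12 weeks of age. The testes of both groups were sampled at 12 weeks. High meant 10 L of liquid milk replacer a day (1.5 kg of powder) and free access to concentrate, with 1.0 kg of daily gain intended (15 calves). Moderate meant 4 L (0.5 kg of powder) and 0.5 kg of concentrate a day, with 0.5 kg of daily gain intended (15 calves). The question put to these data is which copies the calf testis expresses and whether their levels differ between the diets.

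A miRNA is a short RNA cut from a hairpin precursor. It is loaded into an Argonaute protein and lowers the translation and stability of mRNAs that pair with its seed, the bases near its 5′ end. miR-2284 and miR-2285 are known from cattle and other ruminants, where many similar hairpins are spread over the genome, both between genes and within introns. Copies that differ by few bases can give reads that match several of them equally well, and a counting method then has to assign, divide or repeat such reads.

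In RefSeq (assembly ARS-UCD2.0) the family had 191 genes under 138 names, spread over 30 chromosomes or unplaced sequences. Of these names, 25 had more than 1 gene, and together they covered 78 genes. All but 8 of the family rows above 0 matched a RefSeq gene. The span of a protein-coding gene held 125 of the 191 family genes (65.4%) and 549 of 841 other miRNA genes (65.3%). Another miRNA gene lay within 10 kb of 13 of the 191 genes, and of 261 of the 841 others, so by this measure the family genes were mostly solitary.

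Values are TMM-scaled CPM, that is, reads scaled by a normalized library size, and are called units here. They are given per mature miRNA, with no correction for length. The depth of the libraries, recovered from the values, was 6.0003 to 19.98 M reads (M, mega). A count of 0 allows up to 3 reads, or 0.138 to 1.43 units by library, as far as counting error goes. Moderate replicate 5 stood apart from the other libraries: miR-10b, the most abundant miRNA here, made up 84.8% of its reads and 37.0% to 49.0% of those of every other library, and it is the one in which a count of 0 allows 1.43 units. Diet was taken from the diet characteristic, and the titles name the other diet for 18 of the 30 libraries, 9 in each group.

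In bulk testis, fewer cells of a type and less RNA per cell cannot be told apart. The somatic miRNAs miR-202 and miR-140, known from the gonads, summed to 3672 to 4590 units in the High libraries and 1893 to 5057 in the Moderate libraries, or 3361 to 5057 without Moderate replicate 5. Those known from meiotic and later male germ cells (5 rows of miR-34 and miR-449) were all detected. However, miR-449b was at 0 in 1 library and miR-449c in 4. The 5 rows summed to 90.5 to 265 units in the High libraries and 22.8 to 185 in the Moderate libraries. Moderate replicate 5 set the low end, and the Moderate range without it was 41.5 to 185. miR-34c held most of this sum, with a mean of 112.7 units under High and 64.6 under Moderate. The means of miR-34b (7.65 and 4.74) and miR-449c (0.375 and 0.328) were higher under High. Those of miR-449a (11.7 and 11.9) and miR-449b (0.441 and 0.501) were lower under High. Summed levels of smooth muscle rows (miR-143 and miR-145, both above 0) were 83216 to 139866 units under High and 85353 to 178449 under Moderate. The red blood cell rows (miR-144, miR-451 and miR-486) summed to 7927 units in Moderate replicate 5. Other Moderate libraries reached 1870 and High libraries 3606. miR-486 held 7898 of these units, while miR-144 had its lowest value there, 0.476. The leukocyte sum of this library, 5425, exceeded the other Moderate libraries (up to 3705) but not the High range (2512 to 6747). Its endothelial sum (miR-126), 5125, was below every other library (lowest 8981). The part of these cell types in the family's levels was not tested.

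Most rows were above 0 in some library, and few were abundant. Of the 148 rows with these numbers, 95.3% were above 0 in at least 1 library. For comparison, 62.7% of the 241 rows from miR-2286 to miR-2490 were above 0, 83.5% of the 97 rows numbered above miR-11900, and 85.5% of the other 544 rows. The median of the mean values was 0.306 units in the family, 0.0620 and 0.0670 in those 2 bovine-named ranges, and 6.82 in the remaining rows. By mean value, 1 family row exceeded 100 units, 11 lay between 10 and 100, 31 between 1 and 10, 51 between 0.1 and 1, and 47 below 0.1. At the low end, 9 rows rested on at most 3 reads in all 30 libraries together. A row above 0 may hold reads that match other copies too, so these shares count rows and not copies shown to be expressed.

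In all 30 libraries, 50 rows were above 0, and 15 more in 29 libraries. In 13 of those 15 the only library at 0 was Moderate replicate 5. The family took 0.111% of the reads on average. The 10 most abundant rows held 86.8% of its summed value, and the 99 rows too low for the diet test held 2.16%. By number, miR-2284 accounted for 58.4% of the summed value and miR-2285 for 41.6%, although miR-2285 had more rows.

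miR-2284x was the dominant copy. Its RefSeq gene lies within the span of TIAM1, which encodes a guanine nucleotide exchange factor for the small GTPase RAC1. The level of miR-2284x was 530.6 ± 48.2 units (SD, n = 30), and it made up 49.0% of the family's summed value on average (44.2% to 59.6%). Under High it ranged from 448.9 to 570.2 units with a median of 519.3, and under Moderate from 502.4 to 743.0 with a median of 522.8. The highest library was Moderate replicate 5. Without it the Moderate libraries reached 549.7 units and lay inside the range of the High libraries. The gene of miR-2284i lies within TIAM1 too, and this row, named here after its values were seen, averaged 0.0198 units and was above 0 in 5 libraries.

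**Figure D1:**
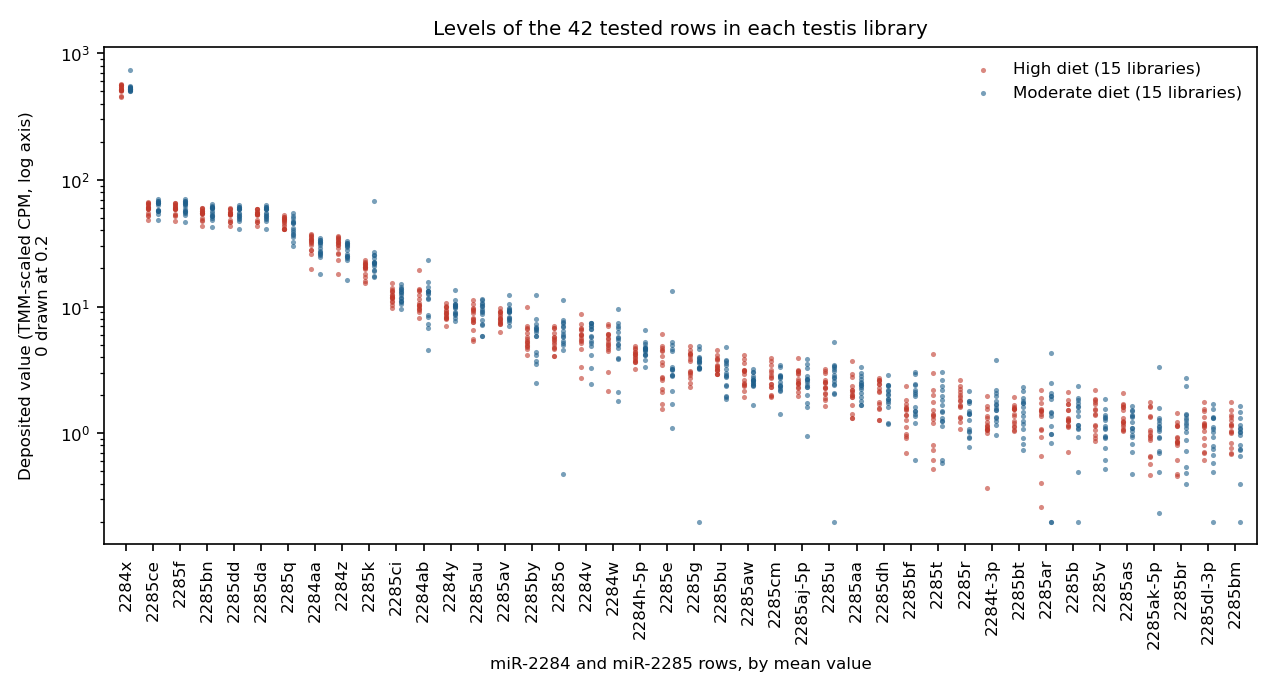
Deposited value (TMM-scaled CPM, log axis, 0 drawn at 0.2) of each of the 42 tested family rows in every library, ordered by mean value; each point is 1 calf, red for High and blue for Moderate. miR-2284x stands near 530.6 units, 5 miR-2285 rows form a step between 53.9 and 60.5 units, and the blue points at 0 or far above their row include Moderate replicate 5.

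After miR-2284x came a step of 5 rows of nearly equal level. miR-2285ce averaged 60.5 ± 5.94 units, miR-2285f 59.8 ± 6.02, miR-2285bn 54.9 ± 5.51, miR-2285dd 53.9 ± 5.54 and miR-2285da 53.9 ± 5.56 (SD, n = 30 each). RefSeq places a gene of miR-2285f within TBK1, a kinase of innate immune signalling, and that of miR-2285da within RUSC2. Over the libraries miR-2285ce ran from 48.0 to 70.5 units with a median of 60.3, and the lowest and the highest library were both Moderate (replicates 5 and 14). The distance between miR-2285ce and miR-2285da was close to 1 SD, yet miR-2285ce was the higher of the pair in all 30 libraries.

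Next in order were miR-2285q, with 44.3 ± 6.14 units, miR-2284aa with 30.3 ± 4.75, miR-2284z with 28.8 ± 4.90 and miR-2285k with 22.5 ± 9.11. The gene of miR-2285q lies within SREK1, a splicing regulator. miR-2284z has 7 RefSeq genes, 6 of them within protein-coding genes (AP3B1, C2CD3, MCTP1, PLEKHA5, PTPRB and SOS1), and miR-2285k has 5, of which 3 lie within DLG2, LRRC8D and PIP4K2A. miR-2284aa has 4, of which 1 lies within PIK3R5. Neighbours in this order differed by more than the SD of either row between miR-2284x and miR-2285ce, between miR-2285da and miR-2285q, and between miR-2285q and miR-2284aa. Within the step of 5 rows, and between miR-2284aa and miR-2284z, they did not, and between miR-2284z and miR-2285k the distance exceeded the SD of the first only. miR-2285k owed its large SD to Moderate replicate 5, at 68.5 units, while the other 29 libraries ran from 15.4 to 27.1.

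Both arms of a hairpin were listed for miR-2284t and miR-2284h. For miR-2284t the 3p arm averaged 1.47 ± 0.589 units and was above 0 in all 30 libraries, and the 5p arm averaged 0.194 ± 0.147 and was above 0 in 24. miR-2284h had its reads on the 5p arm, at 4.34 ± 0.639 units in all 30 libraries. Its 3p arm was listed at 0 throughout.

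The next feature of the family lay in how closely some rows followed each other. For each pair of rows with at least 30 reads, the division of their reads was compared between libraries by a chi-square per degree of freedom, which is near 1 for independently counted reads in a fixed ratio. Among the 4278 family pairs the median was 1.22, but 21 pairs were below 0.1, a limit set after the values were seen. These pairs joined 24 of the 93 family rows compared (25.8%) into 10 groups. Among all other rows, 7 of 120786 pairs were below the limit, which joined 14 of 492 rows (2.85%). None of the 45756 pairs of a family row and another row was. The next family pair, miR-2285cj and miR-2285cy, stood at 0.125.

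The largest group was the step of 5 rows, miR-2285ce, miR-2285f, miR-2285bn, miR-2285dd and miR-2285da. Between miR-2285da and miR-2285dd the ratio of reads stayed within 0.994 and 1.002, and the values were equal in 12 libraries. miR-2285bn was 1.02 times as high as miR-2285da over all libraries and the higher in all 30. The values of these rows therefore moved as one, whereas miR-2285q, of similar level, took its own course.

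**Figure D2:**
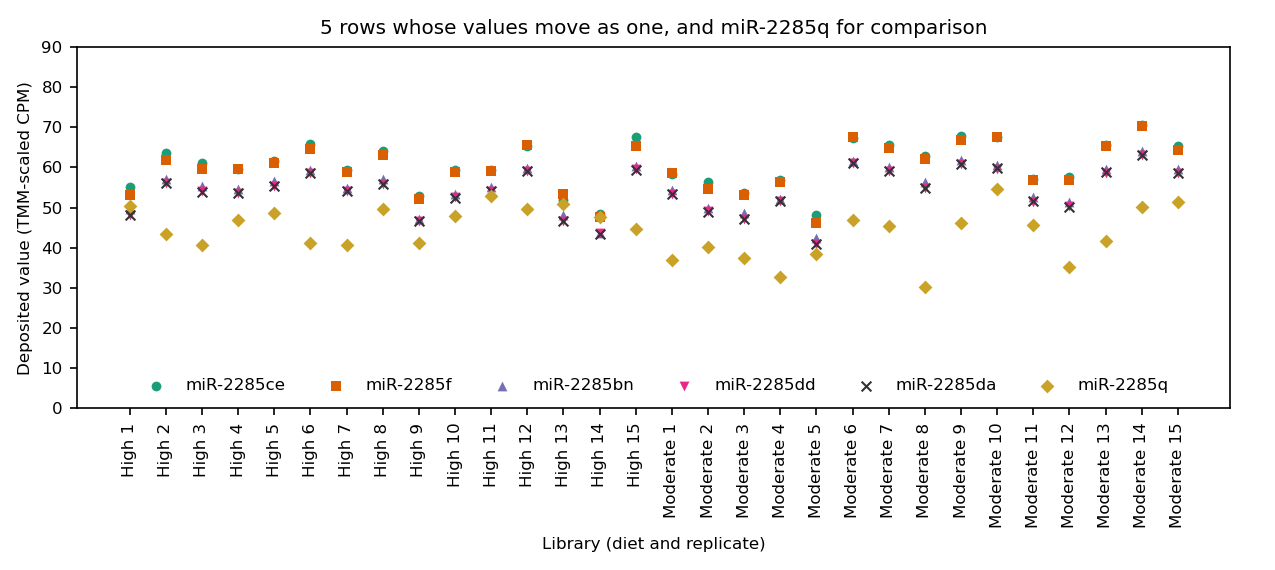
Deposited value (TMM-scaled CPM) of miR-2285ce, miR-2285f, miR-2285bn, miR-2285dd and miR-2285da, with miR-2285q for comparison, in each of the 30 libraries; each symbol is 1 row in 1 library. The 5 grouped rows move together, with miR-2285ce between 48.0 and 70.5 units, while miR-2285q (30.1 to 54.6 units) varies separately.

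A second group joined miR-2284y, miR-2285av and miR-2284h-5p, at 9.36, 8.56 and 4.34 units. In every library miR-2284y was higher than miR-2285av, by a ratio of 1.07 to 1.11. The pair miR-2284aa and miR-2284z kept a ratio of 1.001 to 1.13 with miR-2284aa higher in all 30 libraries. miR-2284ab, whose gene lies within AFF1, and miR-2285by kept a ratio of 1.81 to 2.00, and miR-2285o and miR-2285u one of 2.08 to 2.48. The other groups were miR-2285aw with miR-2285cm, miR-2285ar with miR-2285bd, miR-2285am-5p with miR-2285dc, miR-2285ai-5p with miR-2284ac, and miR-2285bl with miR-2285co. The number in the name did not separate these groups: 3 of the 10 joined rows of miR-2284 and of miR-2285.

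Some rows were identical throughout. miR-2285am-5p and miR-2285dc held the same value in all 30 libraries (181.5 reads each), miR-2285bl and miR-2285co held the same 79 reads in 27 libraries, and miR-2285aq and miR-2285bi the same 7 reads in 7 libraries. A single read made up miR-2285de, which equalled miR-2324, and likewise miR-2285di, which equalled miR-658. When each group was counted once, by its most abundant row, the family's mean summed value was 805.6 units in place of 1083. Its share of the reads was then 0.0821%, and miR-2284x made up 65.9% of the summed value. This way of counting takes the rows of a group as repeats of the same reads. Where reads were divided between rows instead, it leaves some of them out. Mature sequences were not used here, so it was not tested which rows share bases.

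Fractions of reads were more frequent in the family than elsewhere. They occurred in 26 family rows (18.4%), in 1 row of each bovine-named range (0.662% and 1.23%) and in 30 of the remaining rows (6.45%). The denominator of a row is the smallest whole number, up to 24, that makes all its values below 2000 reads whole when multiplied by it. Where reads of a row were divided in different ways, it is a common multiple. For 10 of the 26 rows the denominator equalled the number of RefSeq genes of that name, among them miR-2284z and miR-2284y (7 and 7 genes) and miR-2285k (5). For the other 16 it did not: miR-2284aa had denominator 11 with 4 genes, and miR-2285av had 8 with 1 gene. In the groups described above, miR-2284aa stands with miR-2284z and miR-2285av with miR-2284y, each of which has 7 genes. Whether denominators follow the genes of several rows together was not tested. Whole reads alone were found in 11 rows that have more than 1 gene, such as miR-2285g with 3. Fractional rows held 17.8% of the family's value, and how reads were divided was not stated in the sources read.

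RefSeq spans of family genes overlapped at 5 places where both genes had a row above 0. At 4 of them a gene of the group of miR-2284y met a gene of the group of miR-2285o: MIR2284H with MIR2285O-5 (71 bases shared), MIR2285AV with MIR2285O-1 (70), MIR2284Y-2 with MIR2285U (87) and MIR2284Y-4 with MIR2285O-3 (79). The fifth was MIR2284Z-6 with MIR2285Y (82). Across the 29 libraries other than Moderate replicate 5, Pearson's r of log2 levels was 0.33 between miR-2284y and miR-2285o and 0.38 between miR-2284y and miR-2285u, as a description of libraries that share their scaling. Within the group of miR-2284y and within that of miR-2285o, r was 0.98 or higher. In level, miR-2284y averaged 9.36 units and miR-2285o 5.81. The strand of these genes was not used here.

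In a single library the family's rows above 0 numbered 103 ± 6.52 under High (93 to 116, n = 15) and 98.3 ± 11.4 under Moderate (63 to 115, n = 15). Moderate replicate 5 was the library with 63, and without it the Moderate libraries averaged 101 ± 6.14. The 6 deepest libraries, with 16.7 to 19.98 M reads, had 100 to 116 rows. At a common 6.0003 M reads, the expected number with a read was 94.6 ± 3.19 under High and 90.6 ± 9.89 under Moderate, or 93.0 ± 2.58 without Moderate replicate 5. The groups overlapped. As deposited, the difference between their means was smaller than the SD of either group. At common depth it exceeded the SD of the High libraries with Moderate replicate 5 and was smaller than both SDs without it.

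**Figure D3:**
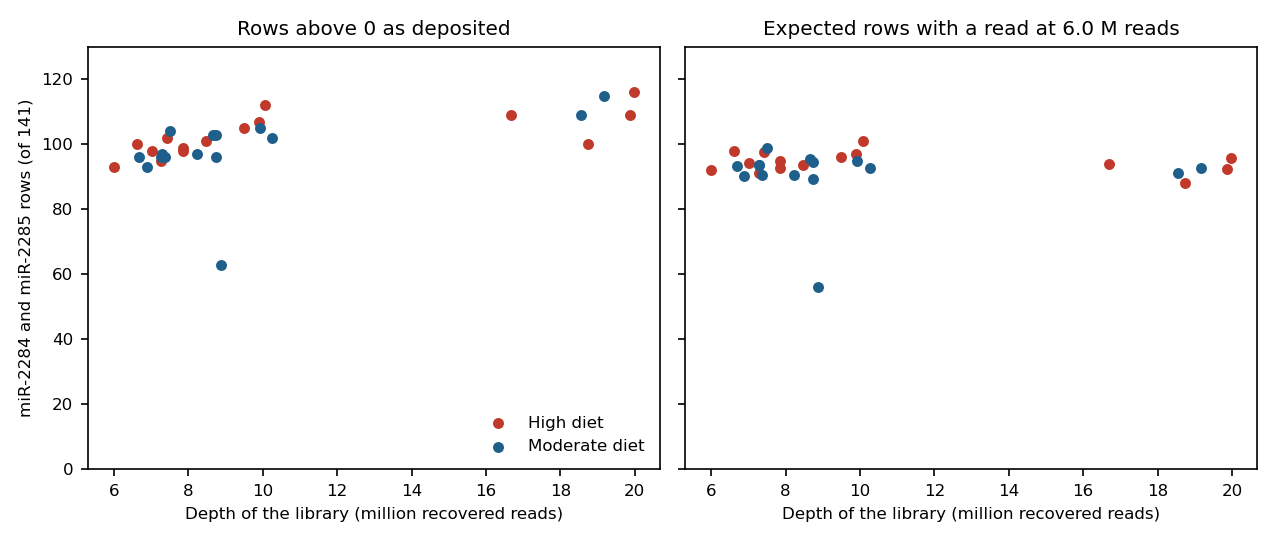
Number of family rows above 0 against library depth in M reads (recovered reads), as deposited (left) and as the number expected to have a read at 6.0 M reads (right); each point is 1 calf. Deeper libraries show up to 116 rows as deposited, the number at common depth lies between 88.1 and 100.9 in 29 libraries, and Moderate replicate 5 lies apart at 55.9.

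The summed level of the family was 1071 ± 50.5 units under High (989.4 to 1155, n = 15) and 1095 ± 56.6 under Moderate (1037 to 1247, n = 15). Moderate replicate 5 was the highest library, and without it the Moderate mean was 1084 ± 39.4. As a share of all reads the order was the other way round, 0.115% ± 0.00867 under High and 0.106% ± 0.0232 under Moderate, where Moderate replicate 5 had 0.0295%. Without it the Moderate share was 0.111% ± 0.00982. The groups overlapped on both scales, and each difference was smaller than the larger of the group SDs.

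Between libraries, miR-2284x varied little. Its SD of log2 level within diets, over the 29 libraries without Moderate replicate 5, was 0.0779, the smallest of all 387 rows tested. With all 30 libraries it was 0.120 and 11 rows had a smaller SD. Its coefficient of variation over the 29 libraries was 5.20%, where counting alone would give 1.42%. Since spread falls with level, family rows were set beside other rows of like level. Rows with a mean log2 level of 4 to 7 had a median SD of 0.135 in the family (n = 9) and 0.234 outside it (n = 88). At 2 to 4 the medians were 0.286 (n = 10) and 0.297 (n = 75), and at 1 to 2 they were 0.269 (n = 11) and 0.359 (n = 49). The 9 rows at 4 to 7 include the 5 rows that moved as one and both miR-2284aa and miR-2284z, so they are not 9 separate measurements.

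**Figure D4:**
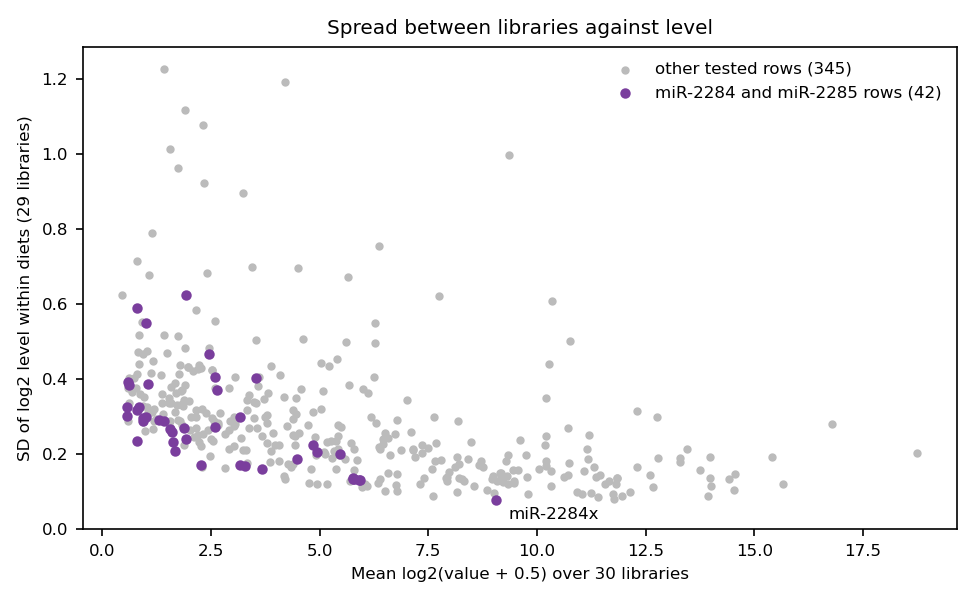
SD of log2 level within diets over 29 libraries against mean log2(value + 0.5) over 30 libraries; purple points are the 42 tested family rows and grey points the other 345 tested rows. miR-2284x has the lowest SD of all rows, at 0.0779.

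Correlations of the other tested family rows with miR-2284x were low. Over the same 29 libraries its Pearson correlation with the other 41 tested rows had a median of -0.00 and ran from -0.26 to 0.32, the highest being miR-2285aa. The points of these correlations share their libraries and their scaling. miR-2284x itself varied little over these libraries (coefficient of variation 5.20%). Some rows, such as miR-2284t-3p, varied about as much as counting alone would give (28.6% and 28.7%), and others, such as miR-2285k, varied more (13.5% and 7.17%). Low correlations here therefore do not show that the rows behave separately.

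Moderate replicate 5 stood apart in the family in both directions. In it 7 tested rows were above all other 29 libraries: miR-2284x (743.0 units), miR-2285k (68.5), miR-2284ab (23.3), miR-2285by (12.4), miR-2284w (9.51), miR-2284t-3p (3.81) and miR-2285ak-5p (3.33). Of these, miR-2284t-3p and miR-2285ak-5p rested on 8 and 7 reads there. Another 19 were below all others as deposited. miR-2285o had 0.476 units there, which is 1 read, against 4.05 to 11.2 elsewhere, and miR-2285g, miR-2285u, miR-2285b, miR-2285bm and miR-2285dl-3p were at 0. A 0 in this library allows up to 1.43 units. That limit is below the other libraries for miR-2285g (2.33 or more) and miR-2285u (1.64 or more). For miR-2285b, miR-2285bm and miR-2285dl-3p it lies inside their range, as it does for miR-2285ar, also at 0. In SDs of the other 29 libraries, 17 of the 42 rows (40.5%) lay more than 3 away, next to 49.1% of all 387 rows. The family rows named in these sentences were chosen after their values were seen.

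For the diet comparison, 42 family rows had at least 1 unit in at least 15 libraries, 9 of miR-2284 and 33 of miR-2285. They are 29.8% of the family rows above 0, next to 12.6% and 11.1% in the bovine-named ranges and 68.2% of the remaining rows. With each group of rows in near-constant ratio counted once, they are 32 rows. The last row inside the filter was miR-2285br, with 15 libraries at 1 unit or more, and the first outside was miR-2285cs, with 13. Fold changes are High minus Moderate of log2(value + 0.5), a scale on which the changes of low rows come out too small.

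None of the 42 rows passed the test by diet (limma, Benjamini-Hochberg adjusted over all 387 tested rows, threshold 0.05), while 19 of the 387 did (4.91%). At an unadjusted p under 0.05 there were 5 family rows (3 higher under High and 2 lower), or 11.9%, where 21.2% of all tested rows reached it. The lowest adjusted p of a family row was 0.0820. A p that misses the threshold does not show equal levels, but the intervals limit the size of a difference on the scale of the test. All 42 confidence intervals lay within 1 log2 unit of 0, and 40 within a 1.5-fold change. The median half-width of these intervals was 0.23. Changes of low rows come out too small on this scale, so for rows near 1 unit these are not limits on the fold change of the level itself. The median log2 fold change was -0.02 over the 42 rows (19 above 0, 23 below) and 0.03 over all 387. When values were scaled to library totals alone, both medians moved up, to 0.17 in the family and 0.22 over all rows, so the family's median stayed below that of all rows. Without Moderate replicate 5 the medians were -0.01 and 0.00.

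**Figure D5:**
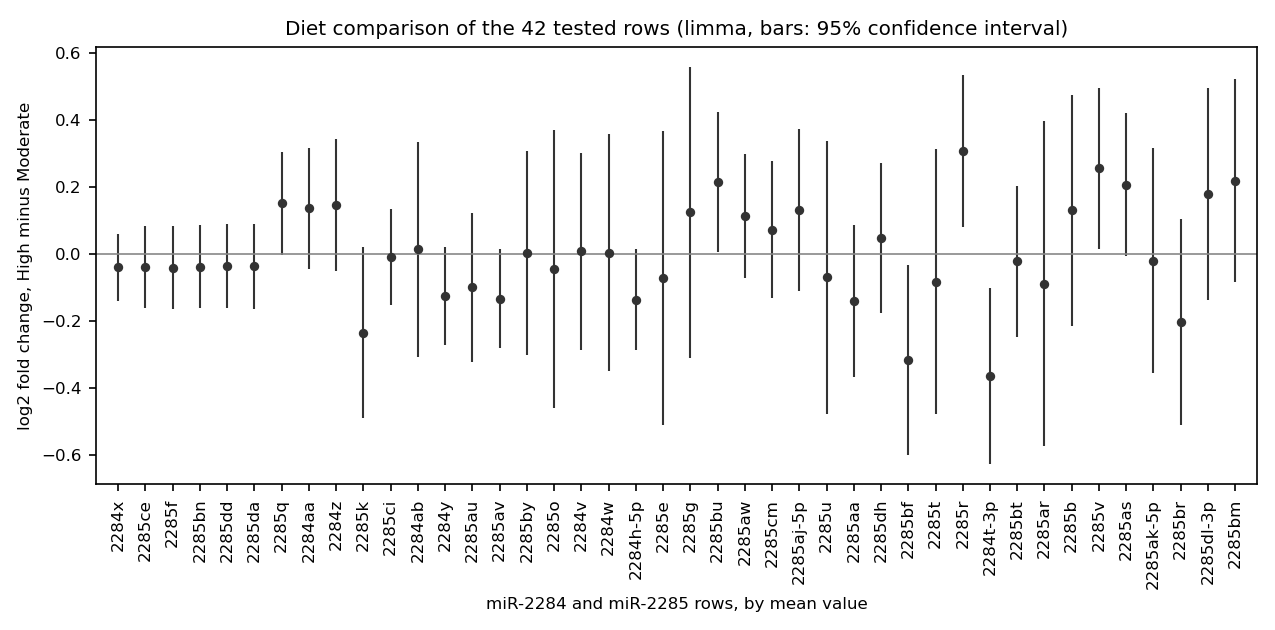
Log2 fold change (High minus Moderate) of the 42 tested family rows, ordered by mean value; points are limma estimates and bars 95% confidence intervals. The estimates run from -0.37 for miR-2284t-3p to 0.31 for miR-2285r, and none passed the adjusted threshold.

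Among the abundant rows, miR-2284x had a log2 fold change close to 0, in the direction of lower levels under High with all 30 libraries at -0.04 (95% confidence interval -0.14 to 0.06). With library totals alone it stood at 0.17, and in edgeR without Moderate replicate 5 at 0.01. The step of 5 rows had estimates of -0.04, with intervals reaching down to -0.17 or -0.16 and up to 0.08 or 0.09, which stood at 0.17 with library totals alone, a scaling that moved nearly all rows up. Without Moderate replicate 5 the 5 estimates ran from -0.07 to -0.06. miR-2285q was at 0.15 (-0.00 to 0.30; adjusted p = 0.248): under High it ranged from 40.6 to 52.9 units with a median of 47.7, and under Moderate from 30.1 to 54.6 with a median of 41.6. The Moderate range enclosed the High range. miR-2284aa and miR-2284z had 0.14 and 0.14, with adjusted p of 0.407 and 0.412 in limma, and 0.09 and 0.09 without Moderate replicate 5. miR-2285k had -0.24 (-0.49 to 0.02; adjusted p = 0.280), and without Moderate replicate 5 -0.13 (adjusted p = 0.245).

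The smallest p-values were those of rows near 1 unit. miR-2284t-3p, whose gene lies within SPON1, had 1.21 ± 0.353 units under High and 1.73 ± 0.671 under Moderate (SD, n = 15 each). High libraries ran from 0.370 to 1.97 units with a median of 1.13, and Moderate libraries from 0.959 to 3.81 with a median of 1.58. In 2 of 15 High libraries it exceeded the Moderate median, and the ranges overlapped. Its log2 fold change was -0.37 (95% confidence interval -0.63 to -0.10; adjusted p = 0.0820 in limma), and -0.29 without Moderate replicate 5 (adjusted p = 0.0798).

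miR-2285r, whose gene lies within PKNOX2, went the other way, with 1.78 ± 0.439 units under High and 1.35 ± 0.393 under Moderate. Its High libraries spanned 1.08 to 2.63 units with a median of 1.80, and its Moderate libraries 0.779 to 2.14 with a median of 1.41. The ranges overlapped, and 11 of 15 High libraries exceeded the Moderate median. The log2 fold change was 0.31 (0.08 to 0.53; adjusted p = 0.0820 in limma). It came nearest to the threshold without Moderate replicate 14, at an adjusted p of 0.0512 in limma, the lowest of any family row over the 46 fits run. With the diets of the titles the estimate was -0.01.

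Also named by p-value were miR-2285bf, at -0.32 (adjusted p = 0.166), miR-2285v, at 0.25 (adjusted p = 0.189), and miR-2285bu, at 0.21 (adjusted p = 0.211), all in limma. miR-2285bf has 2 genes, within FRAS1 and PCYT1B, and 1 of 15 High libraries exceeded its Moderate median. miR-2285v has a gene within AP3B1, and 11 of 15 High libraries exceeded its Moderate median, while for miR-2285bu all 15 did. Even so, the Moderate libraries of miR-2285bu spanned 1.85 to 4.81 units and enclosed the High range of 2.92 to 4.50.

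Without Moderate replicate 5, again none of the 41 family rows then tested passed, where 45 of 385 rows did (11.7%). At an unadjusted p under 0.05 there were 9, where 29.9% of all tested rows reached it. Of the 9, 7 were lower under High, and 5 of those 7 were the groups with overlapping genes: miR-2285u at -0.25, miR-2285o at -0.23, miR-2284h-5p at -0.15, miR-2285av at -0.15 and miR-2284y at -0.14, with adjusted p from 0.0947 to 0.162 in limma. With all 30 libraries miR-2285u stood at -0.07 and miR-2285o at -0.05 (adjusted p = 0.866 and 0.911 in limma). Both log2 fold changes were thus further from 0 without Moderate replicate 5. The other 3 rows stood at -0.14, -0.13 and -0.13 with all 30 libraries. These 5 rows belong to 2 of the groups whose values moved together and are not 5 separate measurements. They are named here after their values were seen. In edgeR without Moderate replicate 5, miR-2285u and miR-2285o also had an unadjusted p under 0.05. The rows miR-2284h-5p, miR-2285av and miR-2284y did not reach it there. Directions were not counted over all tested rows at this p, so a lean particular to the family was not tested.

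On the recovered reads, edgeR passed none of the 42 rows, with 7.24% of all tested rows passing and 22.2% at an unadjusted p under 0.05, where the family had 5. DESeq2 passed none either, with 13.4% and 24.3% of all rows, and 4 family rows at an unadjusted p under 0.05. Without a filter on low values limma passed no family row and 0% of all 838. At an unadjusted p under 0.05 this fit had 11 family rows (7.8%), where 12.4% of all rows reached it. Of the 11, 9 were higher under High and 2 lower, and directions over all rows were not counted. The lowest adjusted p of a family row in this limma fit was 0.0860, for miR-2284e.

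The 99 rows not tested held 1 to 321 reads each over the 30 libraries, with a median of 34. A larger share of High than of Moderate libraries was above 0 for 48 of them (48.5%), a smaller share for 25 (25.3%), and the same for 26. Over all rows of the table above 0 that were too low for the test, these shares were 51.2% and 26.6%. Without Moderate replicate 5, the counts in the family were 42 and 36 (42.4% and 36.4%), next to 49.2% and 37.9% over all such rows. Leaving out that library narrowed the gap between the 2 directions. In 1 diet alone, 9 of the 99 family rows were above 0 (9.09%), each in at most 6 libraries, where 14.4% of all such rows were. Counts with and without Moderate replicate 5 were the same here.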

How the data were processed

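Small RNA from the testes of 30 calves was sequenced, 15 per diet. Per the submitters' processing notes, FastQC 0.11.8, cutadapt 2.6, R 3.4 and edgeR 3.5 were used. No source used here names the aligner, the miRNA reference or the build. The deposited table of the authors holds 1030 miRNAs as a normalized signal: CPM with library sizes scaled by TMM. This was worked out from the values, since 95.3% of the 18379 values above 0 were whole multiples of 1 read (tolerance 0.02 read), and TMM factors of these reads differed from the implied ones by at most 0.000218 (natural log). All 435 pairs of libraries differed by more than sampling noise (chi-square per degree of freedom 39.9 or higher).

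The main test was limma 3.58.1 (R 4.3.3) on log2(value + 0.5) with a trended variance, two-sided, over the 387 rows that reached 1 in at least 15 libraries. edgeR 4.0.16 (quasi-likelihood) and DESeq2 1.42.0 were run on the recovered reads, rounded to whole numbers. Tests were tried on simulated data with known changes. Summed levels, detection, spread and correlations are descriptions with no p-value. The expected number of rows at common depth is a hypergeometric expectation.

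Diet came from the diet characteristic. Replicate numbers follow the order of the samples and pair nothing. The members and lists were chosen with earlier results of these data known. Named are the 10 rows of highest mean, rows past the threshold, the 3 smallest p-values in each direction, both arms of a hairpin, the rows at the edge of the filter and identical rows, while other rows were picked for their values. Grouping by seed was planned and not run, because no mature sequences were used here. RefSeq names and positions (ARS-UCD2.0) were used only to count genes and find neighbours, and coordinates are not printed because the build of the authors is not known. Alternatives were other pseudocounts, filters, scalings, tools and labels, and leaving out each library.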

Additional observations from a re-analysis of the deposited data

How the results depend on the processing

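The count of family rows past the threshold was 0 in each of the 46 fits run, 30 of which left out 1 library each. Over those 30 the median log2 fold change of the tested rows ran from -0.04 to 0.01. It was moved by 1 alternative: scaled to library totals alone, without TMM, it was 0.17, and the difference in summed level (High minus Moderate) was 95.2 units in place of -24.2. Among the values of named rows under the alternatives, 248 kept their direction and their side of the threshold and 14 changed sign. Library totals alone moved the median of all 387 tested rows from 0.03 to 0.22, so the sign changes under it are not particular to these rows. Those were miR-2284x at 0.17, miR-2285ce at 0.17, miR-2285f at 0.17, miR-2285bn at 0.17, miR-2285dd at 0.17, miR-2285da at 0.17 and miR-2284h-5p at 0.043. miR-2284x also turned to 0.0066 in edgeR without Moderate replicate 5 and to 0.0053 in the libraries with the same diet in both labels without that replicate. With the diet of the titles, miR-2284aa stood at -0.010, miR-2284z at -0.011, miR-2285r at -0.011, miR-2285v at -0.10 and miR-2285bf at 0.17. The cause was not tested. No family row passed with the titles' diets, or in the 12 libraries (6 per diet) whose title and characteristic name 1 diet. No paired analysis was possible because the labels give no replicate numbers that the diets share. The 99 rows outside the main test were fitted only without a filter on low values, and most rest on few reads (median 34 over all libraries).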
